A study of Mus musculus with 2 samples.

Results

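The subject is 5 microRNA genes of the Dlk1-Dio3 imprinted region on mouse chromosome 12: Mir770, Mir673, Mir493, Mir341 and Mir370. They lie in or near the long non-coding RNA genes Meg3 and Rian, and they were taken by symbol from the 2202 microRNA genes of the count tables; all 5 were found. Small RNA was sequenced in 2 libraries of left cerebral cortex from male B6CASTF1/J mice, a first-generation cross of C57BL/6J and CAST/EiJ, at 14 days of age. Both libraries belong to 1 group and are labelled biological replicates 1 and 2. The labels mention 3 males and give both libraries the same donor record, without saying whether tissue was pooled or came from separate animals. SDs and p-values therefore measure only how far these samples differ, for which a technical origin is possible.

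The Dlk1-Dio3 region is expressed by parent of origin. The protein-coding genes Dlk1, Rtl1 and Dio3 are active on the paternal chromosome, and the non-coding genes Meg3, Rian and Mirg, with their microRNAs and small nucleolar RNAs, on the maternal one. A microRNA is cut from a hairpin in a longer transcript, and either arm of the hairpin can give a mature form of about the length of the reads sequenced here. The mature form pairs with target messenger RNAs mainly through its seed, bases 2 to 8. The region is known for strong microRNA expression in brain. The counts separate neither the parental alleles nor the arms of a hairpin.

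The mature forms are printed because each count sums reads from the arms of one hairpin, and because their seeds show whether the genes belong to one family. They are given 5′ to 3′ from RefSeq (GRCm38.p6, plus strand), with the seed in capitals.
miR-770-5p: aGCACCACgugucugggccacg
miR-770-3p: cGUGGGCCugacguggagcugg
miR-673-5p: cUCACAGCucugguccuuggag
miR-673-3p: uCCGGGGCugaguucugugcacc
miR-493-5p: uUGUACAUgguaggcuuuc
miR-493-3p: uGAAGGUCcuacugugugccagg
miR-341-5p: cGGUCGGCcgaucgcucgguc
miR-341-3p: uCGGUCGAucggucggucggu
miR-370-5p: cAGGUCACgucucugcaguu
miR-370-3p: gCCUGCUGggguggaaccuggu

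The 10 mature forms carry 10 distinct seeds, so no 2 of these hairpins belong to one seed family. Of the 10 seeds, 2 occur in a mature form of another gene. The seed of miR-673-5p is also that of miR-6985-3p, whose gene Mir6985 stood at 7.01 ± 2.82 CPM (counts scaled to a total of 1000000 per library; SD, n = 2). The seed of miR-370-5p is also that of miR-1193-3p, whose gene Mir1193 lies in the same region, between Mir379 and Mir410, and stood at 59.6 ± 4.08 CPM (SD, n = 2). The mature forms are 19 to 23 bases long, and 4 of the 10 start with U, against 41.3% of the 1738 mature forms in the RefSeq table. Their letters were found, in GENCODE M21 transcripts on either strand, in no gene other than their own and, for Mir770, its host Meg3. No stretch of 18 bases in the 5 hairpins recurs in a hairpin elsewhere in the annotation. This bears on the counts, since reads with more than 1 genomic match were left out of every gene; the genome itself was not searched here.

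The genes follow each other over 54.6 kb of the plus strand (mm10). Mir770 (chr12:109563692-109563785, ENSMUSG00000076451.1) lies in Meg3, in an exon of 1 transcript and in an intron of the other 3 that span it. Mir673 (chr12:109571990-109572080, ENSMUSG00000076316.1) starts 264 bases past the end of Meg3. Mir493 (chr12:109580233-109580315, ENSMUSG00000077025.2) starts 8507 bases past it, and neither is within an annotated GENCODE M21 host transcript on that strand. The Rtl1 group of microRNA genes comes next. Mir341 (chr12:109611500-109611595, ENSMUSG00000070101.1) and Mir370 (chr12:109618258-109618336, ENSMUSG00000065433.1) follow it in introns of Rian, 7.56 kb and 14.3 kb from its start. A gap of 90.7 kb separates Mir370 from Mir379, the next detected microRNA gene.

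Replicate 1 held 11224232 reads and replicate 2 held 8758378, of which 4111167 and 3189903 were counted on the strand of a microRNA gene; CPM values use these totals. A gene with 10 or more counts in both libraries is called detected here, and 406 genes were. Of 10 microRNA genes taken as markers of neurons 7 were detected, and the list held 15.0% of the counts of replicate 1 and 13.9% of replicate 2. Most of that share was Mir139 alone, at 101560 and 83088 CPM. The other 3, the copies of Mir124a, were below the minimum; their mature form has several genomic copies. The endothelial marker Mir126a held 1.04% and 1.32%, the 2 smooth muscle and pericyte markers 0.507% and 0.522%, and the 3 oligodendrocyte markers 0.286% and 0.253%. The 4 microglia and leukocyte markers held 0.184% and 0.197%, and the 3 choroid plexus markers 0.0694% and 0.0888%, with Mir211 below the minimum. The 2 erythroid markers held 0.00516% and 0.00862%, and the liver marker Mir122 0.00518% and 0.0048%. The 5 muscle markers held 0.00207% and 0.00238%, all of it from Mir206, which was detected at 85 and 76 counts. Mir1a-1, Mir1a-2, Mir133a-1 and Mir133a-2 were at 0. Stretches of 18 bases in each of these 4 hairpins recur in other microRNA genes, so the 0s set no limit.

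All 5 genes were detected, over a range of more than 2 orders of magnitude. Mir770 stood far above the others and ranked 6 among all 2202 genes. Reads that matched several positions entered no gene, so ranks and shares of counts hold among the counted reads only. Genes with several genomic copies, such as those of Mir124a, can rank too low by this measure. Mir370 and Mir341 were at a middle level, Mir673 was lower, and Mir493 was lowest. None of the 5 had a count on the opposite strand in either library.

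Mir770, which lies within Meg3, had 176566 counts in replicate 1 and 111930 in replicate 2, or 42948 and 35089 CPM. Its mean was 39018 ± 5557 CPM (SD, n = 2). Replicate 1 was the higher library. In the region only Mir127 of the Rtl1 group had a higher mean, 39262 ± 1857 CPM, and which of them was higher changed with the library: the ratio of Mir770 to Mir127 was 1.06 in replicate 1 and 0.925 in replicate 2. These 2 genes cannot be ranked beyond the spread of the libraries.

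Mir370, from the Rian part of the region and studied elsewhere in liver lipid metabolism, had 11611 and 7106 counts, or 2824 CPM in replicate 1 and 2228 in replicate 2. Its mean was 2526 ± 422 CPM (SD, n = 2), rank 68 among all genes. Mir341, also in Rian and known from mouse and rat, had 5862 and 7165 counts, or 1426 and 2246 CPM. It averaged 1836 ± 580.0 CPM (SD, n = 2), rank 81. Its higher library was replicate 2, the reverse of Mir370.

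Mir673, just past Meg3, had 3235 and 1982 counts, or 787 and 621 CPM, with a mean of 704 ± 117 CPM (SD, n = 2) and rank 125. Mir493, which has been studied mainly in tumour cells, had 527 and 380 counts, or 128 CPM (exact Clopper-Pearson 95% interval 117 to 140) and 119 CPM (107 to 132). The intervals overlap, and the mean was 124 ± 6.41 CPM (SD, n = 2), rank 206. Intervals cover counting error only and are too narrow where reads are copies of one molecule, and the labels mention no molecular identifiers. In the plot of levels by library, the step between Mir370 and Mir341 is narrower than the gap between the libraries for Mir341, and the other steps are wider.

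**Figure D1:**
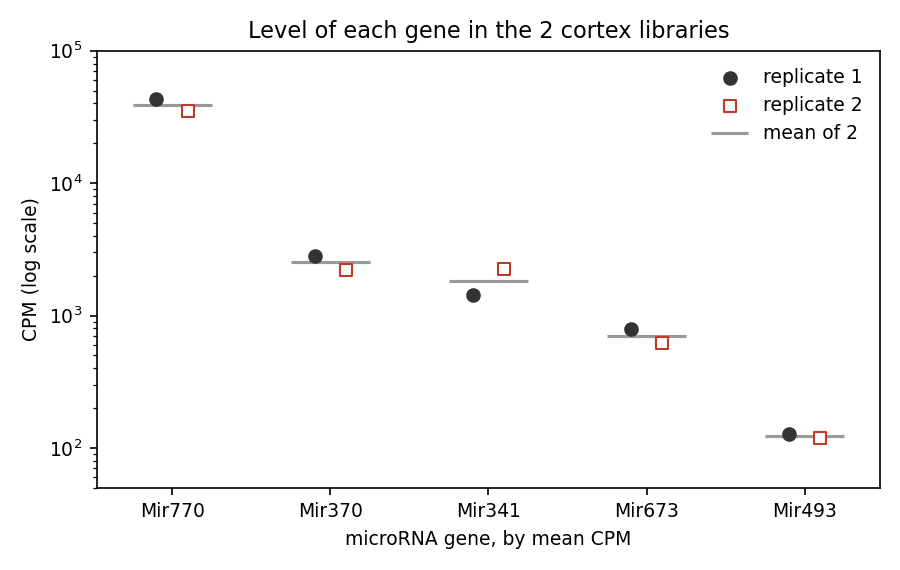
CPM (log axis) of each of the 5 genes in replicate 1 (filled circles) and replicate 2 (open squares), with the mean of 2 as a line. Mir770 is above the rest at 42948 and 35089 CPM, Mir493 is lowest at 128 and 119 CPM, and only Mir341 is higher in replicate 2.

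The order of the levels was Mir770, Mir370, Mir341, Mir673 and Mir493, and in 3 of the 4 neighbouring pairs the CPM values did not overlap. Mir770 was 15.2 times Mir370 in replicate 1 and 15.8 times in replicate 2. Mir370 was 1.98 times Mir341 in replicate 1 but 0.992 times in replicate 2, so these neighbours did not differ beyond their spread. Mir341 was 1.81 and 3.62 times Mir673, a ratio that itself varied between the libraries. Mir673 was 6.14 and 5.22 times Mir493. From the highest to the lowest gene the ratio was 335 in replicate 1 and 295 in replicate 2. With 2 libraries no exact test over samples can pass 0.05, since the smallest two-sided p of a sign-flip test is 0.5.

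Since a small RNA read spans about one mature form, CPM was not divided by length. The hairpins differ in length from 79 bases (Mir370) to 96 (Mir341), and dividing by it leaves 1 pair changed. Per 100 bases of hairpin, Mir370 was above Mir341 in both libraries, 2.41 times in replicate 1 and 1.21 times in replicate 2. On that scale the order held in 4 of 4 pairs, with Mir770 at 41509 ± 5912 and Mir493 at 149 ± 7.72 CPM per 100 bases (SD, n = 2).

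Together the 5 genes held 4.81% of all counts in replicate 1, with an exact 95% interval of 4.79 to 4.83. In replicate 2 they held 4.03% (4.01 to 4.05), for a mean of 4.42% ± 0.552 (SD, n = 2). Mir770 alone made up 89.3% of that sum in replicate 1 and 87.1% in replicate 2. Mir341 took 2.96% and 5.57% of the sum, Mir370 5.87% and 5.53%, Mir673 1.64% and 1.54%, and Mir493 0.266% and 0.296%. Without Mir770 the other 4 held 0.517% and 0.521% of all counts, a mean of 0.519% ± 0.00347 (SD, n = 2). The sum of all 5 thus followed Mir770, while among the other 4 a higher Mir341 stood against lower Mir370 and Mir673 in replicate 2.

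Between Dlk1 and Dio3 the annotation holds 67 microRNA genes, which together held 21.9% ± 0.642 of all counts (SD, n = 2). The 5 genes held 20.1% ± 1.93 of the region's counts, against 31.96% ± 0.792 for the 10 genes of the Rtl1 group and 47.7% ± 2.76 for the 43 genes from Mir379 to Mir410. The median of the mean CPM was 1836 over these 5 genes. It was 2745 over the 8 detected genes of the Rtl1 group, 817 over the 34 detected genes from Mir379 to Mir410, and 129 over all 406 detected genes. Their ranks within the region were 2 (Mir770), 15 (Mir370), 18 (Mir341), 28 (Mir673) and 44 (Mir493), so the 5 genes are spread through the region's range of levels. The map of levels shows no steady trend of level with distance from the start of Meg3: Mir493 and Mir673, which lie between Mir770 and the Rtl1 group, are low between high genes.

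**Figure D2:**
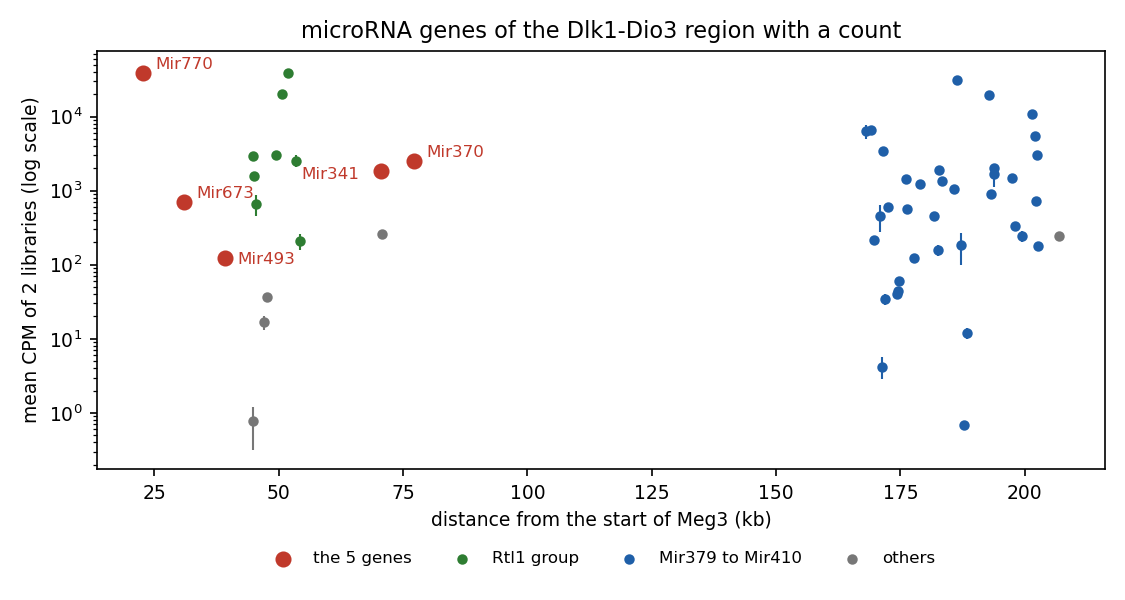
Mean CPM (log axis) of the region's microRNA genes against the distance of each from the start of Meg3 in kb; vertical lines join the 2 libraries. Genes at 0 in both libraries and Mir1247, far to the right beside Dio3, are left out. Mir770 is at 22.7 kb, Mir673 at 31.0 kb, Mir493 at 39.2 kb, Mir341 at 70.5 kb and Mir370 at 77.3 kb.

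Outside the Rtl1 group and the stretch from Mir379 to Mir410, the region holds 9 more annotated microRNA genes, all with a lower mean CPM than Mir673. Mir1188 starts 226 bases after Mir341, also in introns of Rian, and had 1229 and 718 counts, or 262 ± 52.2 CPM (SD, n = 2). Mir341 was 4.77 times Mir1188 in replicate 1 and 9.98 times in replicate 2. Gm23912 ends 57 bases before Mir370 and was at 0 counts in each library. Among reads with 1 genomic match, a count of 0 leaves room for up to 0.730 CPM (replicate 1) or 0.940 CPM (replicate 2). Mir882, beyond Rian, also had 0 counts, with the same limits. The genome was not searched for other copies of Gm23912 or Mir882. Mir1906-1, in exons of Meg3 upstream of Mir770, had 0 counts too, but its hairpin shares an 18-base stretch with Mir1906-2, so its 0 sets no limit. Mir3070a (16.7 ± 4.97 CPM) and Mir3070b (36.4 ± 3.58 CPM), which lie between Mir665 and Mir431 of the Rtl1 group, were detected at low levels. Whether their hairpins share stretches with other genes was not checked, so these levels hold among the counted reads only. Mir3544, on the strand opposite to Mir337, had 5 and 1 counts, and Mir3072 (245 ± 29.5 CPM, in introns of Mirg) and Mir1247 (3.93 ± 2.01 CPM, in an exon of Dio3os) lie at the far end of the region.

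The libraries differed in 4 of the 5 genes: Mir770, Mir370 and Mir673 were lower in replicate 2, and Mir341 was higher. For each gene a two-sided exact binomial test asked whether its counts fell to the libraries in the ratio of their totals, with Benjamini-Hochberg adjustment over all 406 detected genes. The test compares 2 libraries and no conditions, and allows for the sampling of reads only. By it 58.1% of all detected genes differed, 23.4% higher and 34.7% lower in replicate 2, so 4 calls among 5 deeply counted genes are not a result particular to them. Mir341 had a log2 ratio of CPM, replicate 2 over replicate 1, of 0.66 (95% interval 0.61 to 0.71; adjusted p = 1.23e-146, exact binomial test), or 1.58-fold higher. Mir370 had a log2 ratio of -0.34 (-0.39 to -0.30; adjusted p = 5.54e-56, exact binomial test). Mir673 also had -0.34, with a wider interval of -0.42 to -0.26 (adjusted p = 2.82e-16, exact binomial test). For Mir770 the log2 ratio was -0.29 (-0.30 to -0.28), and the log10 of its adjusted p was -616. Mir493 had -0.11 (-0.30 to 0.09; adjusted p = 0.377, exact binomial test), which at 527 and 380 counts was not distinguishable from 0. The interval of Mir493 also holds the ratio of Mir770, so these ratios are not shown to differ.

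Library sizes scaled by the trimmed mean of M values (TMM) move every log2 ratio up by 0.08. Then 54.4% of detected genes differed, 27.3% higher and 27.1% lower in replicate 2. The calls of the 5 genes stayed: Mir341 had a log2 ratio of 0.73, Mir770 of -0.21, Mir673 and Mir370 of -0.26 each, and Mir493 of -0.03. Over all detected genes the median log2 ratio with library totals was -0.08, and over these 5 genes it was -0.29. The median over the Rtl1 group was -0.12 and that over the genes from Mir379 to Mir410 was -0.10. Over the 4 detected genes of the region outside these sets, Mir3070a, Mir3070b, Mir1188 and Mir3072, it was -0.33. The 5 genes thus did not stand alone in a median this low. All 4 of these other genes were below 0, as were 231 of the 406 detected genes. With library totals 3 of the 4 were called lower in replicate 2, and with TMM sizes 2.

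**Figure D3:**
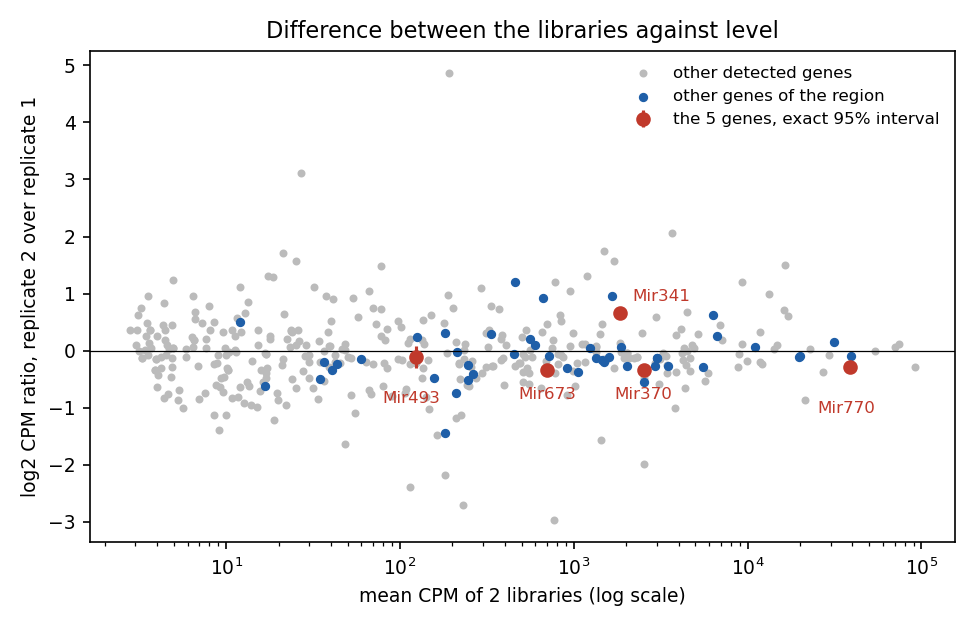
Log2 ratio of CPM, replicate 2 over replicate 1, against mean CPM (log axis) for the 406 detected genes; red points are the 5 genes with exact 95% intervals, mostly narrower than the points. Mir341 at 0.66 is above 0, while Mir770, Mir673 and Mir370 lie between -0.29 and -0.34 and Mir493 at -0.11.

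Mir341 went against its neighbours along the chromosome. The log2 ratio of Mir1188, the next gene, was -0.41 (-0.54 to -0.28; adjusted p = 3.53e-09, exact binomial test), and Mir370 after it was also lower in replicate 2. Of the region's 51 detected genes, 16 had a positive log2 ratio and 35 a negative one. Over all 406 detected genes 175 were positive and 231 negative. Above Mir341 were 3 genes: Mir380 (1.21), Mir668 (0.97) and Mir665 (0.92), named after their values were seen. Among all 406 detected genes 42 had a higher log2 ratio than Mir341, so its value was not extreme for these libraries. Mir770, Mir673 and Mir370 had 292, 305 and 306 detected genes above them.

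**Figure D4:**
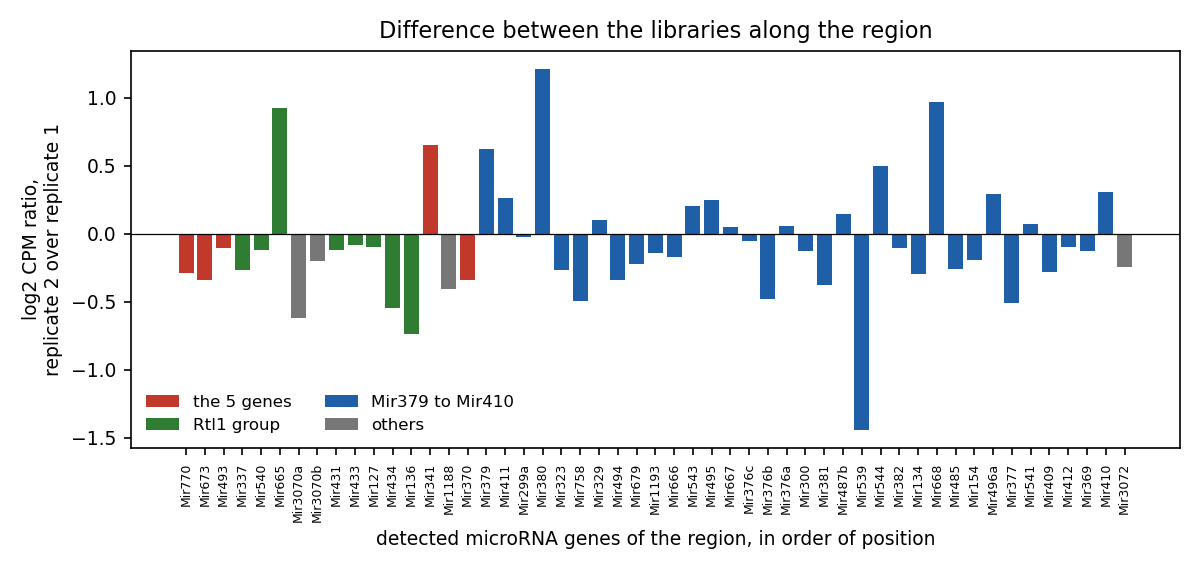
Log2 ratio of CPM, replicate 2 over replicate 1, of the region's detected microRNA genes in order of position (bars from 0; no error drawn), with the 5 genes in red; Mir1247 was not detected. The bar of Mir341 points up at 0.66 and stands between Mir136 and Mir1188, which point down.

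The sequence of Mir341 stood apart from that of the other hairpins. Its hairpin is printed to show a repeat of the 4 letters GGUC, in capitals, read on the transcribed strand with no overlap between copies.
Mir341 hairpin: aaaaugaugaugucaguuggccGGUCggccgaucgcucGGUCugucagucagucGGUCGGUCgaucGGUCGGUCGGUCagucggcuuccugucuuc
It holds 7 copies, and no other of the 1005 RefSeq hairpins holds as many. The other 4 hairpins hold 1 copy each, and 24.9% of all hairpins hold at least 1. Of the 6-letter words read along the Mir341 hairpin, 71.4% were distinct, against a median of 98.6%, and 0.398% of hairpins had a lower share. The motif was chosen after the sequences were seen. Nothing here ties the repeat to the count of Mir341.

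The Mir770 hairpin also repeats a word. It is shown with the 6 letters CACGUG in capitals, which read the same on both strands and were chosen after the sequence was seen.
Mir770 hairpin: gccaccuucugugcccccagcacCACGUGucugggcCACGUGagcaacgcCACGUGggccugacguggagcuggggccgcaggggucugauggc
The 3 copies do not overlap one another; 1 lies inside a mature arm, and 2 run across an end of one. No other RefSeq hairpin holds 3 copies, and 0.995% hold at least 1. This hairpin was the richest of the 5 in G and C at 70.2%, above 97.5% of all hairpins. Mir673 had 61.5%, Mir341 59.4%, Mir370 55.7% and Mir493 53.0%, so all 5 lay above the median of 51.7%. RNAfold, which predicts the most stable fold from the letters alone, gave Mir770 an energy of -61.9 kcal/mol per 100 bases. Mir493 came to -54.2, Mir370 to -52.3, Mir673 to -46.5 and Mir341 to -43.8, all more negative than the median of -40.6.

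The genes nearest to each of the 5 in level were found by the distance between their log2 CPM in the 2 libraries. Nearest to Mir770 were Mir127 (distance 0.14), Mir487b (0.54), both of the same region, and Mirlet7d (0.60) on chromosome 13. Nearest to Mir370 were Mir296 on chromosome 2 (0.09), Mir434 of the Rtl1 group (0.14) and Mir322 on the X chromosome (0.23). Mir341 had no neighbour as close: Mir668 (0.35) and Mir376a (0.43) of the same region and Mirlet7c-2 on chromosome 15 (0.37). Nearest to Mir673 were Mir1249 (0.11), Mir412 (0.18) of the region and Mir467d (0.22). Nearest to Mir493 were Mir30c-1 (0.08), Mir203 (0.20) and Mir664 (0.22), none of them in the region. The distances rest on 2 libraries of 1 tissue and describe a like level only.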

How the data were processed

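The authors deposited raw read counts per microRNA gene for 2 libraries, with the assembly mm10 and GENCODE annotation M21 per the file headers; aligner and counter: not given in the sources used here. All 2202 gene IDs matched GENCODE M21. Only counts from a gene's own strand entered the results. Reads that were unmapped (19.1% and 17.5%), matched several positions (39.1% and 41.4%) or fell in no gene (5.13% and 4.66% in replicates 1 and 2) stayed out of library totals. The limit of a 0 is 3 counts.

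With 1 group there is no contrast, so no count model was fitted. The exact binomial test of each gene's split used a minimum of 10 counts per library and an adjusted p threshold of 0.05. It was tried on simulated counts whose only spread was the sampling of reads. That trial cannot show how the test behaves under other variation between libraries. Size factors came from edgeR 4.0.16 (TMM) and DESeq2 1.42.0, other statistics from scipy 1.17.1, and folding energies from RNAfold 2.7.2. Sequences are those of RefSeq; all 5 hairpins matched GENCODE in position and letters. Named genes were the 5, all others of the region outside the Rtl1 group and Mir379 to Mir410, the 3 nearest in level to each, and those sharing a seed. The genes and lists were chosen with earlier results of these data known. Alternatives were the strand, total, size factors, count minimum, threshold, hairpin length, pseudocount, leading gene and each replicate.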

Additional observations from a re-analysis of the deposited data

Results flagged for a closer look

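Signal lay outside the counts used: 39.1% of the reads in replicate 1 and 41.4% in replicate 2 had more than 1 genomic match and entered no gene's count. How many of them came from the 5 genes was not analysed here.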

How the results depend on the processing

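The calls between the libraries held for all 5 genes in direction and side of the threshold under the 6 alternatives, 30 of 30 values. These were TMM or DESeq2 sizes, no minimum or 50 counts, an adjusted p under 0.01, and strand ignored. The minimum and threshold alternatives reuse the same counts and totals, so no direction could change under them. The adjusted p of Mir493 ranged from 0.328 to 0.908 (exact binomial test). The median level of 1836 CPM became 670 with all reads as the total, as the larger total requires. The share of 4.42% became 0.519% without Mir770. Of 20 CPM values with both replicates kept, 11 stayed within 1 SD, 4 rose and 5 fell. With 1 replicate left out, the share ranged from 4.03 to 4.81%, the median level from 1426 to 2228 CPM and the pairs in order from 3 to 4; with 2 libraries such values say nothing about stability. No paired analysis was possible because there is 1 group. At 527 and 380 counts, Mir493 was not called different between the libraries. With library totals, the interval of its log2 ratio, -0.30 to 0.09, leaves out a ratio as large as the 0.66 of Mir341. A smaller difference within that interval remains possible.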
